A study of Mus musculus with 12 samples.

Results

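Hoxb1 to Hoxb9 are 9 neighbouring homeobox genes of the HoxB cluster, measured here in mouse embryonic stem cells before and after 1 day with RA (retinoic acid). Hoxb13, which lies apart beyond Hoxb9, was not counted among them. All 9 were found among the 22180 named genes of the arrays, through the platform annotation of their transcript clusters, the probe groups that the array reads as units. The annotation names a HoxB gene for 12 transcript clusters, of which 10 belong to 1 gene and 2 are shared. The cells were of the E14 line and carried, by transduction, a short hairpin RNA against LOXL2 (shLOXL2), a lysyl oxidase family member, or a control hairpin (shCT). The groups were shLOXL2 at day 1 with RA, shCT at day 1 with RA, shLOXL2 at day 0 without RA and shCT at day 0 without RA, with 3 arrays each (12 arrays). Since day 1 was sampled only with RA, RA and a day of culture cannot be told apart. Separate cultures are not named in the labels for the arrays of a group, so the p-values rest on a spread between arrays that may be technical.

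Hox proteins are transcription factors that give the embryo its positions from head to tail. Genes at the Hoxb1 end of the cluster are switched on earlier and reach further forward than those at the Hoxb9 end. Retinoic acid acts through RAR and RXR receptors, which bind paired copies of a short hexamer close to AGGTCA, and several such elements are known in and beside this cluster. In embryonic stem cells Hox genes are held silent by Polycomb proteins until differentiation begins.

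The start regions of Hoxb1, Hoxb4 and Hoxb8 are shown because RefSeq's promoter table holds no other members. These genes lie at the front, the middle and the back of the cluster and were all higher with RA. Each run is the 250 bases before the annotated start, 5′ to 3′, in build GRCm38.p6. Capitals mark the words searched for on both strands: AGGTCA, the Pbx-Hox word TGATNNAT, the Meis word TGACAG and the TATA word TATAAA. Paired hexamers were searched as direct repeats of AGGTCA with 1, 2 or 5 bases between them, which contain AGGTCA.
Hoxb1, chr11:96365508-96365757, + strand: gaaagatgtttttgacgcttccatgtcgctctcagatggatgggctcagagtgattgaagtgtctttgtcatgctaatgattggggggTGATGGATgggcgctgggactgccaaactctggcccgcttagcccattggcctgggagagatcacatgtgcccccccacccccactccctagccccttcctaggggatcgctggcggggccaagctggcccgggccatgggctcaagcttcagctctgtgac
Hoxb4, chr11:96318017-96318266, + strand: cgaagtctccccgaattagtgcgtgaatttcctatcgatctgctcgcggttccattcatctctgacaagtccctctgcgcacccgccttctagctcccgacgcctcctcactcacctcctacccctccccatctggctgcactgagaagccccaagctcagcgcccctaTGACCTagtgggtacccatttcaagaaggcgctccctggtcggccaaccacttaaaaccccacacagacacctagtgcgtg
Hoxb8, chr11:96281655-96281904, + strand: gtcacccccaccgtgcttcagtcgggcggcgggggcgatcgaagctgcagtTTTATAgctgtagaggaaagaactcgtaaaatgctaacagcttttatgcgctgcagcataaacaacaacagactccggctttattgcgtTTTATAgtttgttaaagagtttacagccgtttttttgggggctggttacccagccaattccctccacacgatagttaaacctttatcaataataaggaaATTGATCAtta
The Hoxb1 run held TGATNNAT from 162 to 155 bases before the start, as TGATGGAT, a word of the kind that Pbx and Hox proteins bind together. The Hoxb8 run held the same word on the other strand from 11 to 4 bases before the start, and TATAAA on the other strand from 199 and from 110 bases before it. The Hoxb4 run held 1 AGGTCA hexamer, on the other strand, from 81 to 76 bases before the start. No paired hexamer of this exact form and no TGACAG was in these windows. Looser copies of the hexamer were not searched, so a paired element of that kind could be present. Of 32851 promoter windows of the same length, 7.68% held TGATNNAT, 14% held AGGTCA, 12.4% held TATAAA and 15.9% held TGACAG, and the paired hexamers were in at most 0.0335%. The words shown are therefore common ones. CpG dinucleotides numbered 7, 14 and 12 in the Hoxb1, Hoxb4 and Hoxb8 runs, against a median of 6 over all windows.

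The cluster also carries microRNA genes, whose mature sequences are shown from RefSeq (GRCm38.p6) with the seed, bases 2 to 8, in capitals, since these genes sit among the members or beside Hoxb9.
mmu-miR-10a-5p, chr11:96317186-96317208, + strand: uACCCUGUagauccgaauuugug
mmu-miR-196a-5p, chr11:96265187-96265208, + strand: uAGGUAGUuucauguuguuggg
Their seeds differ. miR-196a is known in mice to cut the Hoxb8 messenger RNA. The array reads these loci through transcripts and not as mature microRNAs.

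The hairpin's target was checked first. Both transcript clusters of Loxl2 are annotated to Gm21451 too, so their signal cannot be given to Loxl2 alone. In cluster 17301634 the log2 signal lay between 4.79 and 5.30 in the 6 shLOXL2 arrays and between 5.17 and 6.51 in the 6 shCT arrays, and averaged over both RA states it was 60.0% of control (exact relabelling within RA states, two-sided p = 0.005). Cluster 17301670 stood at 65.0% of control (exact p = 0.03), and neither passed limma over all transcript clusters (adjusted p = 0.28 and 0.543). The relabelling took arrays with and without RA as independent. If same-numbered arrays of a construct share a culture, both exact p-values are too small. By RA state, cluster 17301634 differed by -0.91 (log2) with RA and by -0.57 without RA. Cluster 17301670 differed by -1.08 with RA and by only -0.16 without RA, where its shLOXL2 arrays (4.58 to 5.03) and shCT arrays (4.58 to 5.27) overlapped. Array medians lay between 4.58 and 4.68. All 10 listed embryonic stem cell markers had group means above the array medians, and their mean log2 level lay between 8.64 and 8.82 in shLOXL2 arrays with RA, 8.67 and 8.81 in shCT arrays with RA, 9.18 and 9.20 in shLOXL2 arrays without RA and 9.06 and 9.26 in shCT arrays without RA. Of the 10, 4 fell with RA in shLOXL2 cells (Pou5f1, Zfp42, Fgf4 and Utf1) and 3 in shCT cells (the same without Utf1). Of 9 fibroblast feeder markers Pdgfrb rose in both constructs, of 8 primitive endoderm markers Gata6 rose in both, and of 8 trophectoderm and 6 mesoderm markers none passed in either construct. Averaged over both constructs, 2 trophectoderm markers rose past the threshold, among them Cdx2 (0.63 ± 0.13, limma adjusted p = 0.00696), and no mesoderm marker did. Of 7 neural progenitor markers Msi1 rose in shLOXL2 cells and Msi1, Sox1 and Irx3 in shCT cells. The mean log2 level of the 7 lay between 5.61 and 5.71 in shLOXL2 arrays with RA, 5.71 and 6.03 in shCT arrays with RA, 5.22 and 5.39 in shLOXL2 arrays without RA and 5.19 and 5.42 in shCT arrays without RA. The 8 primitive endoderm markers had mean log2 levels between 6.68 and 6.77 in shLOXL2 arrays with RA, 6.4 and 7.18 in shCT arrays with RA, 6.16 and 6.24 in shLOXL2 arrays without RA and 5.99 and 7.02 in shCT arrays without RA. The shCT arrays lay further apart. The main axis of variation within groups held 49.4% of the within-group variance, and the deviations of Hoxb9, Hoxb5 and Hoxb6 correlated with it at r = -0.676, -0.645 and -0.583 over the 12 arrays. Those of Hoxb4, Hoxb8, Hoxb3 and Hoxb7 stood between -0.325 and -0.174, and those of Hoxb1 and Hoxb2 at 0.04 and -0.06. With that axis as a covariate 8 members rose in shLOXL2 and 9 in shCT cells. Of all 22180 genes, 2212 in shLOXL2 and 2474 in shCT cells then passed in either direction. The axis was built after the group means were taken out, so this fit could not move any change and altered only its error. It is therefore no check on whether this variation shaped the changes. The part that such cells play in the HoxB values was not tested, and in bulk RNA more cells that express a gene and more RNA per cell cannot be told apart.

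With RA, signals were higher from Hoxb1 to Hoxb9. In shLOXL2 cells 8 of 9 members rose past the limma threshold (adjusted p under 0.05), with a median log2 change of 1.51 over the 9. In shCT cells all 9 rose, with a median of 1.95. Over all 22180 genes the median change was -0.01 in shLOXL2 and 0.001 in shCT cells. Of these genes 2.05% rose and 1.41% fell in shLOXL2 cells, and 2.16% rose and 2.09% fell in shCT cells. The arrays with RA lay wholly above those without RA for 8 members in shLOXL2 cells and for 9 in shCT cells, as they did for 10.3% of all genes in shLOXL2 and 10.7% in shCT cells.

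**Figure D1:**
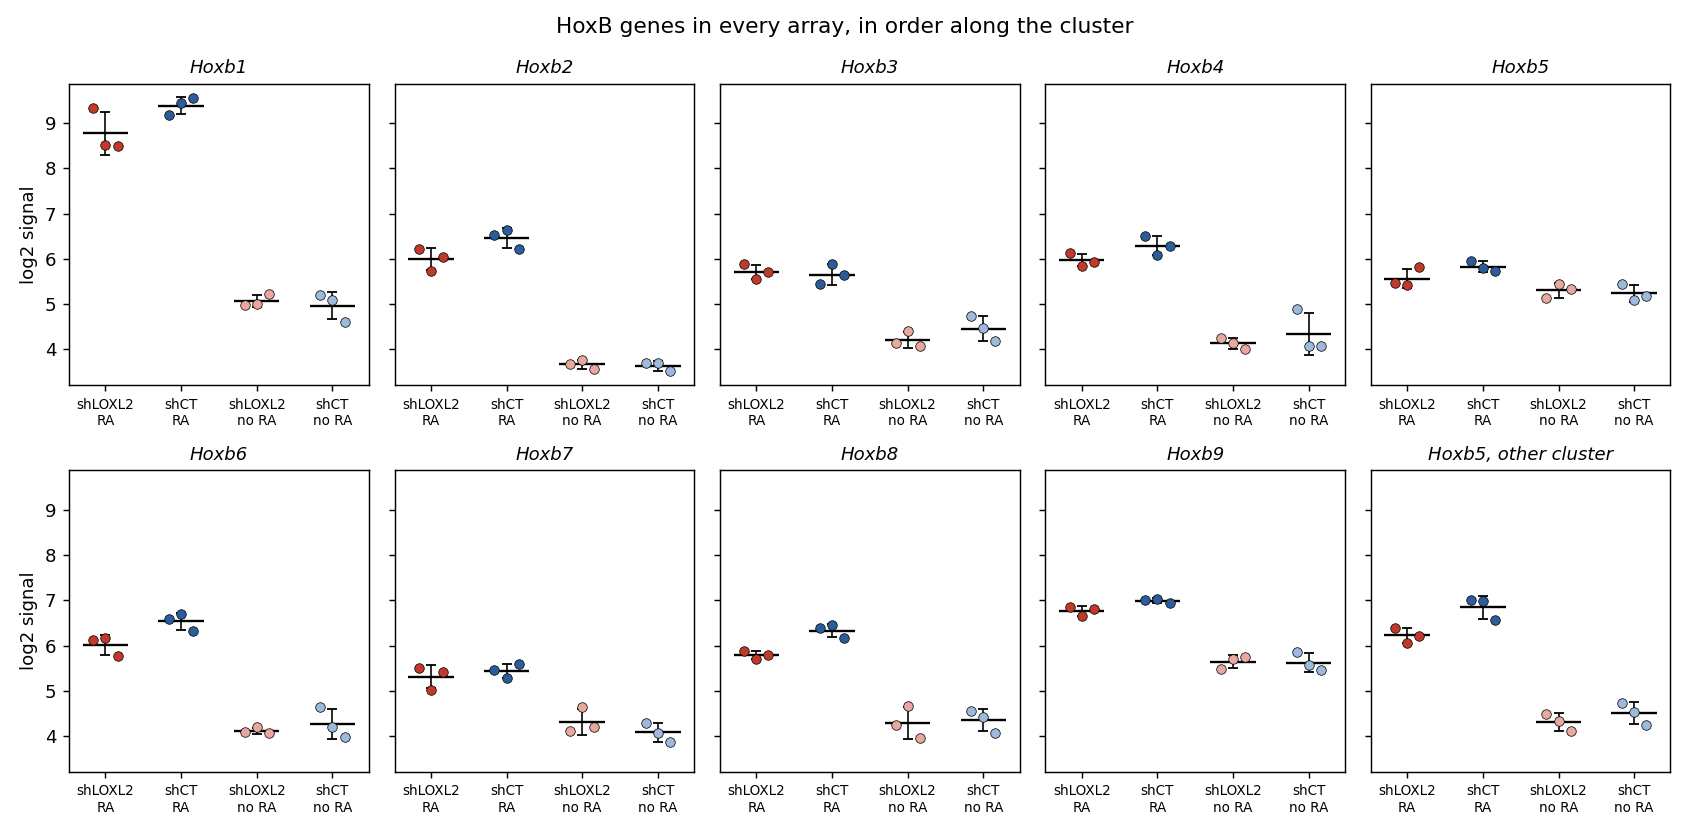
Log2 signal of each HoxB gene in every array, with 1 panel per gene in order along the cluster and a last panel for the other transcript cluster annotated to Hoxb5. Points are arrays, lines are group means and bars are 1 SD (n = 3). Arrays with RA lie above those without RA in every panel and construct except Hoxb5 in shLOXL2 cells, where they overlap.

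The genes at the front of the cluster held the largest and also some of the smaller changes. Hoxb1, which gives the hindbrain segment that forms facial motor neurons its identity, changed most. In shLOXL2 cells its log2 signals were 9.33, 8.51 and 8.50 with RA, against 4.97, 5.01 and 5.22 without RA. In shCT cells they were 9.19, 9.44 and 9.55 with RA, against 5.19, 5.09 and 4.61 without RA. No array without RA came within 3 log2 units of an array with RA. Hoxb1 rose by 3.72 ± 0.22 (log2, SE) in shLOXL2 cells and by 4.43 ± 0.22 in shCT cells, which are 13.1-fold and 21.5-fold (adjusted p = 5.59e-07 and 1.18e-07).

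Hoxb2, a target of Hoxb1 in the mouse hindbrain, was next. It stood at 6.21, 5.73 and 6.04 with RA, against 3.68, 3.76 and 3.57 without RA, in shLOXL2 cells. In shCT cells it stood at 6.52, 6.64 and 6.22 with RA, against 3.70, 3.69 and 3.51 without RA. Its 6 arrays without RA spanned only 3.51 to 3.76 and all lay below their array medians. The rise was 2.32 ± 0.15 (log2) in shLOXL2 cells and 2.83 ± 0.15 in shCT cells (adjusted p = 1.96e-06 and 1.8e-07).

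Hoxb3, which is expressed in the hindbrain behind Hoxb1, changed less than either of its neighbours. In shLOXL2 cells its signals were 5.88, 5.56 and 5.70 with RA, against 4.14, 4.41 and 4.07 without RA. In shCT cells they were 5.44, 5.88 and 5.64 with RA, against 4.73, 4.46 and 4.18 without RA. Hoxb3 was the only member with a higher change in shLOXL2 (1.51 ± 0.17) than in shCT cells (1.20 ± 0.17), both past the threshold (adjusted p = 0.000163 and 0.000859), and the difference of 0.31 had a 95% interval from -0.20 to 0.82. A transcript cluster shared by Hoxb3 and Hoxb2, 17268322, rose by 0.89 ± 0.17 in shLOXL2 and by 1.22 ± 0.17 in shCT cells (adjusted p over all transcript clusters 0.0315 and 0.0046). By number it lies apart from the clusters of Hoxb3 (17255604) and Hoxb2 (17255614), and which transcript or strand it reads was not tested.

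In the middle of the cluster, Hoxb4, known for enlarging pools of blood stem cells when overexpressed, stood at 6.12, 5.85 and 5.94 with RA, against 4.24, 4.14 and 4.0 without RA, in shLOXL2 cells. In shCT cells its signals were 6.50, 6.08 and 6.29 with RA, against 4.88, 4.06 and 4.08 without RA. The array at 4.88 stood alone in its group, and the groups with and without RA still did not overlap. Hoxb4 rose by 1.84 ± 0.20 in shLOXL2 and by 1.95 ± 0.20 in shCT cells (adjusted p = 0.000127 and 7.06e-05), which was the smallest gap between constructs among the 9.

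Hoxb5, a regulator of enteric neuron development, has 2 transcript clusters that gave different answers. Cluster 17268313 represents the gene here because it was brighter over the 12 arrays, by a margin of only 0.011 log2 units. It stood at 5.47, 5.41 and 5.81 with RA, against 5.13, 5.45 and 5.34 without RA, in shLOXL2 cells. In shCT cells it stood at 5.96, 5.79 and 5.72 with RA, against 5.45, 5.09 and 5.17 without RA. The change of 0.25 ± 0.15 in shLOXL2 cells did not pass (adjusted p = 0.489), and the arrays overlapped. The change of 0.58 ± 0.15 in shCT cells passed narrowly (adjusted p = 0.0433), and the call was lost in 14 of 25 other ways of fitting, among them 8 of the 12 fits without 1 array (shCT without RA replicates 2 and 3, shCT with RA replicates 1, 2 and 3, shLOXL2 without RA replicates 2 and 3, and shLOXL2 with RA replicate 2), with changes between 0.51 and 0.69 over the 12.

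The other Hoxb5 cluster, 17255588, moved like the genes around it. Its signals were 6.39, 6.06 and 6.22 with RA, against 4.49, 4.32 and 4.10 without RA, in shLOXL2 cells. In shCT cells they were 7.0, 6.99 and 6.56 with RA, against 4.73, 4.54 and 4.25 without RA. In the gene table in its place it rose by 1.92 ± 0.17 in shLOXL2 and by 2.35 ± 0.17 in shCT cells (adjusted p = 2.52e-05 and 3.27e-06), and all 9 members then rose in both constructs. Both clusters correlated at r = 0.828 over the 12 arrays, which share the RA treatment. By number, 17255588 lies between the clusters of Hoxb6 (17255581) and Hoxb4 (17255594). The brighter cluster, 17268313, lies apart from them, between those of Calcoco2 (17268301) and Snx11 (17268338). RefSeq places Hoxb5os, a noncoding RNA named as antisense, over Hoxb5. Which transcript or strand each cluster reads was not tested, so the brighter cluster may not read Hoxb5 itself.

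Hoxb6, a gene of the lateral plate mesoderm in mouse embryos, closed the middle of the cluster. Its signals were 6.13, 6.16 and 5.77 with RA, against 4.08, 4.19 and 4.07 without RA, in shLOXL2 cells. In shCT cells they were 6.59, 6.70 and 6.32 with RA, against 4.63, 4.20 and 3.98 without RA. It rose by 1.91 ± 0.17 in shLOXL2 cells (adjusted p = 3.14e-05) and by 2.26 ± 0.17 in shCT cells (adjusted p = 5.16e-06). All 6 arrays without RA lay below their array medians.

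Towards Hoxb9 all 3 remaining members passed the threshold in both constructs. Hoxb7, known from the collecting duct of the kidney, stood at 5.50, 5.02 and 5.41 with RA, against 4.10, 4.64 and 4.20 without RA, in shLOXL2 cells. In shCT cells it stood at 5.45, 5.28 and 5.59 with RA, against 4.29, 4.07 and 3.87 without RA. Its rise of 0.998 ± 0.18 in shLOXL2 cells (adjusted p = 0.0055) was the smallest that passed in that construct, and in shCT cells it rose by 1.36 ± 0.18 (adjusted p = 0.000474). Without the 4 arrays that lay high on the main axis of variation within groups, the rise in shLOXL2 cells was 0.80 and its adjusted p 0.0633.

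Hoxb8, used to keep myeloid progenitors growing in culture, stood at 5.87, 5.70 and 5.79 with RA, against 4.24, 4.67 and 3.96 without RA, in shLOXL2 cells. In shCT cells it stood at 6.38, 6.45 and 6.17 with RA, against 4.56, 4.43 and 4.07 without RA. The groups lay more than 1 log2 unit apart in each construct. Hoxb8 rose by 1.497 ± 0.18 in shLOXL2 and by 1.98 ± 0.18 in shCT cells (adjusted p = 0.000274 and 2.14e-05). Hoxb9, which acts in patterning the ribs, stood at 6.85, 6.65 and 6.81 with RA, against 5.49, 5.70 and 5.74 without RA, in shLOXL2 cells. In shCT cells it stood at 7.01, 7.04 and 6.94 with RA, against 5.85, 5.57 and 5.45 without RA. Its arrays were tight, with an SD of 0.054 in shCT with RA, and it rose by 1.12 ± 0.13 in shLOXL2 and by 1.37 ± 0.13 in shCT cells (adjusted p = 0.000255 and 4.13e-05).

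Without RA the signals of Hoxb2 and Hoxb6 lay below the array median in 6 of 6 arrays, those of Hoxb3, Hoxb4, Hoxb7 and Hoxb8 in 5, that of Hoxb1 in 1, and those of Hoxb9 and of the brighter Hoxb5 cluster in none. With RA no member lay below it in any array. No background level was set here, and how much of a dim signal is background was not measured, which limits the order of changes between genes.

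Changes of neighbours along the cluster were compared within arrays, as the change with RA of their log2 ratio averaged over constructs, with exact two-sided relabelling of RA within constructs. The change of Hoxb1 exceeded that of Hoxb2 by 1.497 log2 units, and that of Hoxb2 exceeded that of Hoxb3 by 1.22. Hoxb4 then exceeded Hoxb3 (Hoxb3 minus Hoxb4, -0.55), Hoxb6 exceeded Hoxb7 by 0.91, Hoxb8 exceeded Hoxb7 (Hoxb7 minus Hoxb8, -0.56) and Hoxb8 exceeded Hoxb9 by 0.49. Each of these had an exact p = 0.005, the smallest that the 400 relabellings allow, and an adjusted p of 0.00625 over 10 pairs. The comparisons of Hoxb5 depended on its cluster. With the brighter cluster Hoxb4 exceeded Hoxb5 by 1.48 and Hoxb6 exceeded it by 1.67 (Hoxb5 minus Hoxb6, -1.67), both with an adjusted exact p = 0.00625, and with the other cluster the differences were -0.24 for Hoxb4 minus Hoxb5 and 0.05 for Hoxb5 minus Hoxb6 (adjusted exact p = 0.117 and 0.66). The changes therefore did not step down evenly from Hoxb1 to Hoxb9. As a description over 9 genes that share arrays, Spearman's rho of position and change was -0.68 in shLOXL2 and -0.37 in shCT cells, or -0.80 and -0.48 with the other Hoxb5 cluster.

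**Figure D2:**
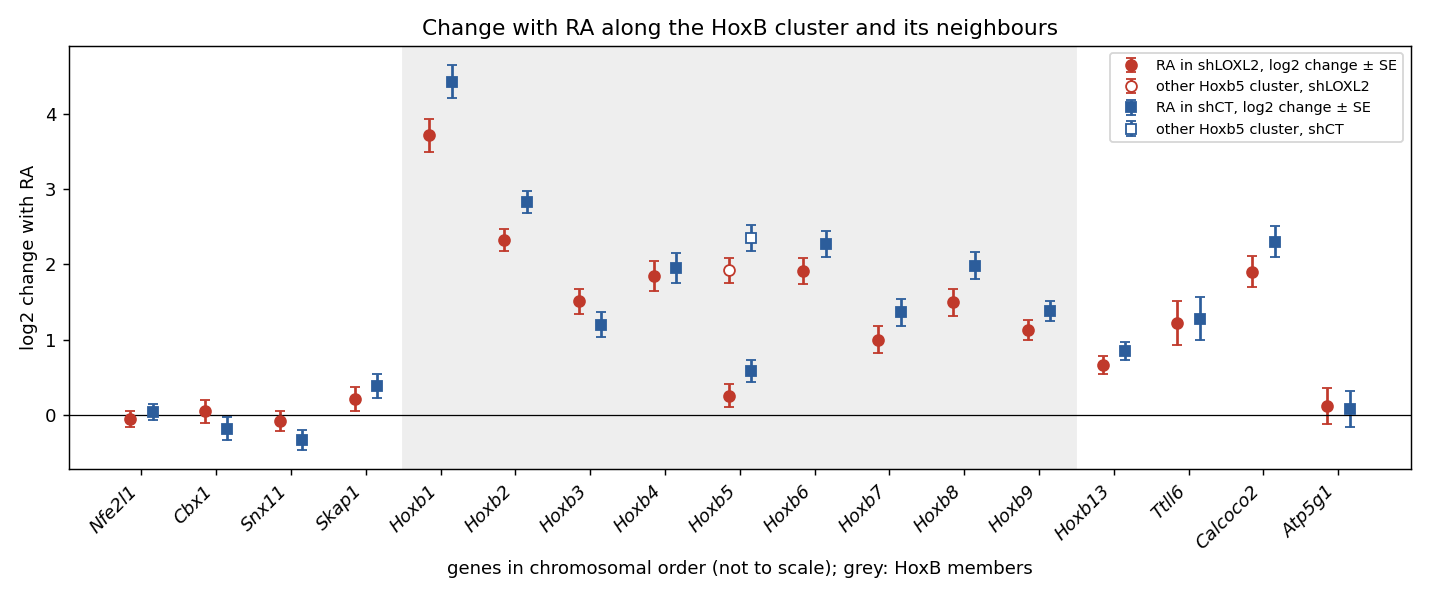
Log2 change with RA of the HoxB genes (grey) and of 4 measured protein-coding neighbours on each side, in chromosomal order, with shLOXL2 as circles and shCT as squares. Bars are standard errors of the fit and open symbols are the other Hoxb5 cluster. The changes are highest at Hoxb1 and stay above 0 through Hoxb9 and on to Calcoco2, while the 4 genes beyond Hoxb1 lie between -0.34 and 0.39.

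The neighbours beyond the ends of the cluster were not alike. Order was taken from RefSeq's gene table (GRCm38.p6). Beyond Hoxb9, Hoxb13, a further Hox gene of the cluster known from prostate and tail, rose by 0.67 ± 0.12 in shLOXL2 and by 0.85 ± 0.12 in shCT cells (adjusted p = 0.00561 and 0.000825). Ttll6, a tubulin polyglutamylase gene, rose by 1.22 ± 0.29 in shLOXL2 and by 1.28 ± 0.29 in shCT cells (adjusted p = 0.0329 and 0.0228). Calcoco2, an autophagy receptor gene, rose by 1.90 ± 0.21 in shLOXL2 and by 2.30 ± 0.21 in shCT cells (adjusted p = 0.000129 and 2.11e-05). The next gene, Atp5g1, a subunit of ATP synthase, stood at 0.11 ± 0.24 in shLOXL2 and 0.08 ± 0.24 in shCT cells and did not pass. Beyond Hoxb1 none of 4 passed in either construct (adjusted p of at least 0.213). In shLOXL2 cells the changes were 0.21 for Skap1, a T cell adaptor gene, -0.09 for Snx11, a sorting nexin gene, 0.05 for Cbx1, which encodes a heterochromatin protein, and -0.06 for Nfe2l1, a transcription factor gene. In shCT cells they were 0.39, -0.34, -0.18 and 0.04 in the same gene order.

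Of the 12 RefSeq genes between Hoxb9 and Hoxb1, Hoxb5os and Hoxb3os had no named transcript cluster here, and Mir10a shared 1 with Hoxb4. That cluster, 17255602, was dim in all 12 arrays, with log2 signals from 1.99 to 2.82. It changed by 0.38 ± 0.18 in shLOXL2 and by 0.12 ± 0.18 in shCT cells (adjusted p over all transcript clusters 0.523 and 0.871). Beside Hoxb9, Mir196a-1 changed by 0.52 ± 0.22 in shLOXL2 and by 0.43 ± 0.22 in shCT cells, and the noncoding gene Gm53 by 0.31 ± 0.19 in shLOXL2 and by 0.58 ± 0.19 in shCT cells, none past the threshold. These 2 genes were chosen after their values were seen.

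The HoxB genes stood beside the other Hox clusters as follows. Of 9 measured HoxA genes 8 rose in each construct, with medians of 0.93 in shLOXL2 and 1.44 in shCT cells. By smallest p these were led by Hoxa5 (3.89 ± 0.19 in shLOXL2 and 3.84 ± 0.19 in shCT cells), Hoxa4 (1.73 ± 0.15 in shLOXL2 and 1.71 ± 0.15 in shCT cells) and Hoxa2 (2.13 ± 0.20 in shLOXL2 and 1.49 ± 0.20 in shCT cells). Of 17 measured HoxC and HoxD genes none rose in shLOXL2 and 1 rose in shCT cells, Hoxc5 (0.99 ± 0.20, adjusted p = 0.0135), with medians of -0.07 in shLOXL2 and 0.19 in shCT cells. The difference between the clusters was not tested.

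**Figure D3:**
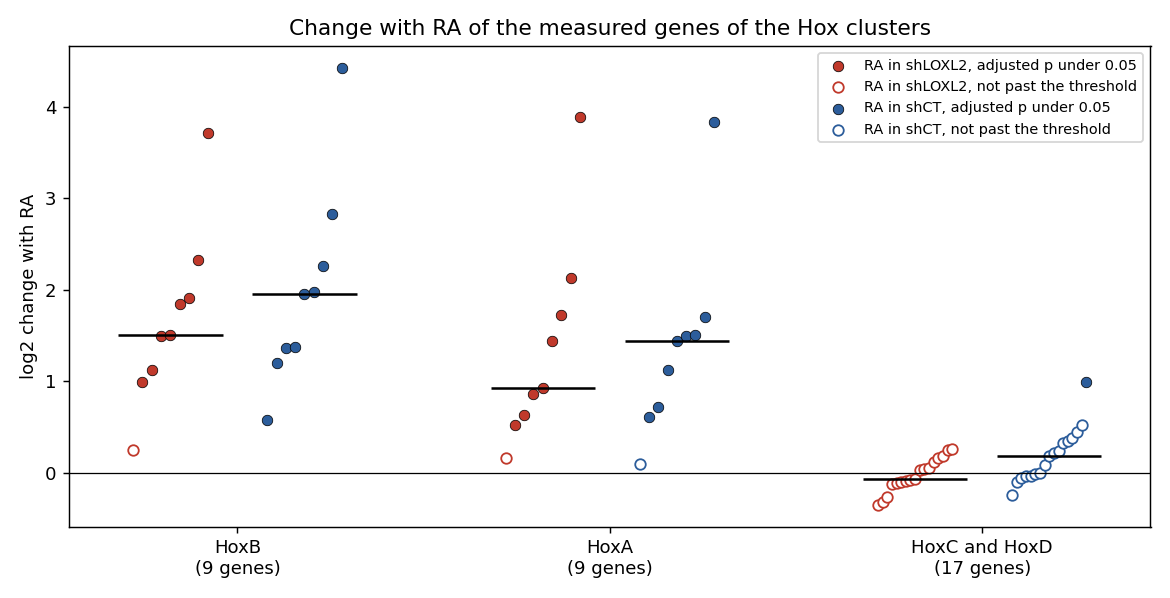
Log2 change with RA of every measured gene of the HoxB, HoxA, and HoxC and HoxD clusters, shLOXL2 left of shCT in each column, with filled points past the adjusted p threshold and lines at the medians. HoxB and HoxA genes spread from near 0 to about 4, and HoxC and HoxD genes lie around 0 with 1 filled point.

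Genes known to act upstream of HoxB or with its products were counted from lists of genes. Of 6 retinoic acid receptor genes 1 rose in each construct, Rarb (1.78 ± 0.14 in shLOXL2 and 1.67 ± 0.14 in shCT cells). Of 11 genes of retinoid metabolism and binding 5 rose in shLOXL2 and 6 in shCT cells, led by Cyp26a1, which degrades retinoic acid (4.29 ± 0.16 in shLOXL2 and 4.09 ± 0.16 in shCT cells). Of 8 TALE genes, whose products bind DNA together with Hox proteins, 5 rose in shLOXL2 and 4 in shCT cells, with Meis2 at 2.32 ± 0.22 in shLOXL2 and 3.02 ± 0.22 in shCT cells and Meis1 at 1.86 ± 0.13 in shLOXL2 and 1.75 ± 0.13 in shCT cells. Of 8 regulators of HoxB in the embryo 2 rose in each construct: Cdx1, a caudal homeobox gene (2.22 ± 0.16 in shLOXL2 and 2.35 ± 0.16 in shCT cells), and the orphan receptor gene Nr6a1 (0.75 ± 0.11 in shLOXL2 and 0.71 ± 0.11 in shCT cells). Cdx2 passed only when averaged over both constructs (0.63 ± 0.13). Of 18 Polycomb genes Bmi1 rose (0.71 ± 0.17) and Phc1 fell (-0.50 ± 0.11) in shLOXL2 cells, and Phc1 fell in shCT cells (-0.50 ± 0.11). Of 11 trithorax and H3K27 demethylase genes, Kdm6b, which encodes a demethylase of the Polycomb mark, rose by 0.53 ± 0.12 in shLOXL2 and by 0.48 ± 0.12 in shCT cells, and Wdr5 fell by 0.59 in shLOXL2 cells and stood at -0.48 in shCT cells, which did not pass.

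Genes with the pattern most like each member were ranked by Pearson's r across the 12 arrays. RA separates these arrays for every member except Hoxb5, whose arrays overlap in shLOXL2 cells, so high values follow from any shared change with RA. Efnb1, which encodes the membrane ligand ephrin-B1, was among the 3 most alike for Hoxb1, Hoxb2, Hoxb4 and Hoxb6 (r = 0.992, 0.995, 0.982 and 0.984). Hoxb1 and Hoxb2 were among the most alike of each other (r = 0.992), as were Hoxb6 for Hoxb8 (0.983) and Hoxb9 for Hoxb6 (0.985). Hoxb3 was nearest to Rarb (0.971) and Hoxa5 (0.970), Hoxb4 to Stra6 (0.991), the retinol transporter gene, and Hoxb9 to Zfp703 (0.995). Hoxb7 had Hoxb13 in its list (0.969), and Hoxb8 had Crabp2 (0.977), a retinoic acid binding protein gene. The brighter Hoxb5 cluster had no Hox gene in its list, and its nearest was Pja1 (0.948). Within groups, after the 4 group means were taken out, the 36 pairs of members correlated at a median of 0.49, from -0.12 to 0.76, over arrays that they share.

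LOXL2 knockdown was compared next, as the title of the series asks for genes that depend on LOXL2. With RA, 8 of 9 members were lower in shLOXL2 than in shCT cells, as were 48.5% of all genes. The median log2 difference was -0.32 over the members and 0.006 over all genes. None passed the threshold (limma, adjusted p at least 0.972 for each member), and 0% of all genes did. At an unadjusted p under 0.05, 4 members were lower, against 2.65% of all genes. The arrays of both constructs did not overlap for 4 members, all lower in shLOXL2 cells, against 5.88% of all genes, and with the other Hoxb5 cluster both counts were 5. Members of 1 cluster share arrays and are not independent, and no test of the list was made.

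The members with the largest differences with RA, in the clusters that represent the genes here, are given by array. Hoxb8 had 5.87, 5.70 and 5.79 in shLOXL2 arrays, against 6.38, 6.45 and 6.17 in shCT arrays, a difference of -0.55 with a 95% interval from -0.93 to -0.16. Hoxb6 had 6.13, 6.16 and 5.77 in shLOXL2 arrays, against 6.59, 6.70 and 6.32 in shCT arrays (-0.51, interval -0.89 to -0.14). Hoxb2 had 6.21, 5.73 and 6.04 in shLOXL2 arrays, against 6.52, 6.64 and 6.22 in shCT arrays (-0.47, interval -0.79 to -0.14). For Hoxb8, Hoxb6, Hoxb2 and Hoxb9 every shLOXL2 array was below every shCT array, although for Hoxb2 the closest arrays, at 6.21 and 6.22, nearly met, and 3 arrays against 3 cannot give an exact p below 0.1. Hoxb1 differed by -0.61 (interval -1.08 to -0.14), but its shLOXL2 replicate 1, at 9.33, lay inside the range of the shCT arrays. Without that array the Hoxb1 difference was -0.89, and without replicate 2 or 3 of the same group it was -0.48.

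The other members differed less with RA, except Hoxb5 when read through its other cluster. Hoxb9 differed by -0.23 (interval -0.51 to 0.06), Hoxb4 by -0.32 (-0.75 to 0.11), Hoxb7 by -0.13 (-0.51 to 0.25) and Hoxb3 by 0.06 (-0.30 to 0.42). Hoxb5 differed by -0.26 (-0.58 to 0.06) in its brighter cluster and by -0.63 (-0.99 to -0.26) in the other, where every shLOXL2 array lay below every shCT array. These intervals leave room for differences of 0.5 log2 units in Hoxb4, Hoxb5, Hoxb7 and Hoxb9.

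Without RA, where the 2 Loxl2 clusters differed by -0.57 and -0.16, the members showed no common direction. Of 9, 4 were lower in shLOXL2 cells and 5 higher, with differences from -0.25 (Hoxb3) to 0.24 (Hoxb7) and a median of 0.02. Over all genes 48.3% were lower. No member passed (limma adjusted p = 0.9998), as 0% of all genes did. None had an unadjusted p under 0.05, against 2.45% of all genes lower and 2.22% higher at that level. The arrays overlapped for all 9, while they did not for 4.04% of all genes that were lower and 4.2% that were higher. With arrays weighted by estimated quality Hoxb7 passed, at 0.44 (adjusted p = 0.0338), in a fit that called 2875 of 22180 genes.

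**Figure D4:**
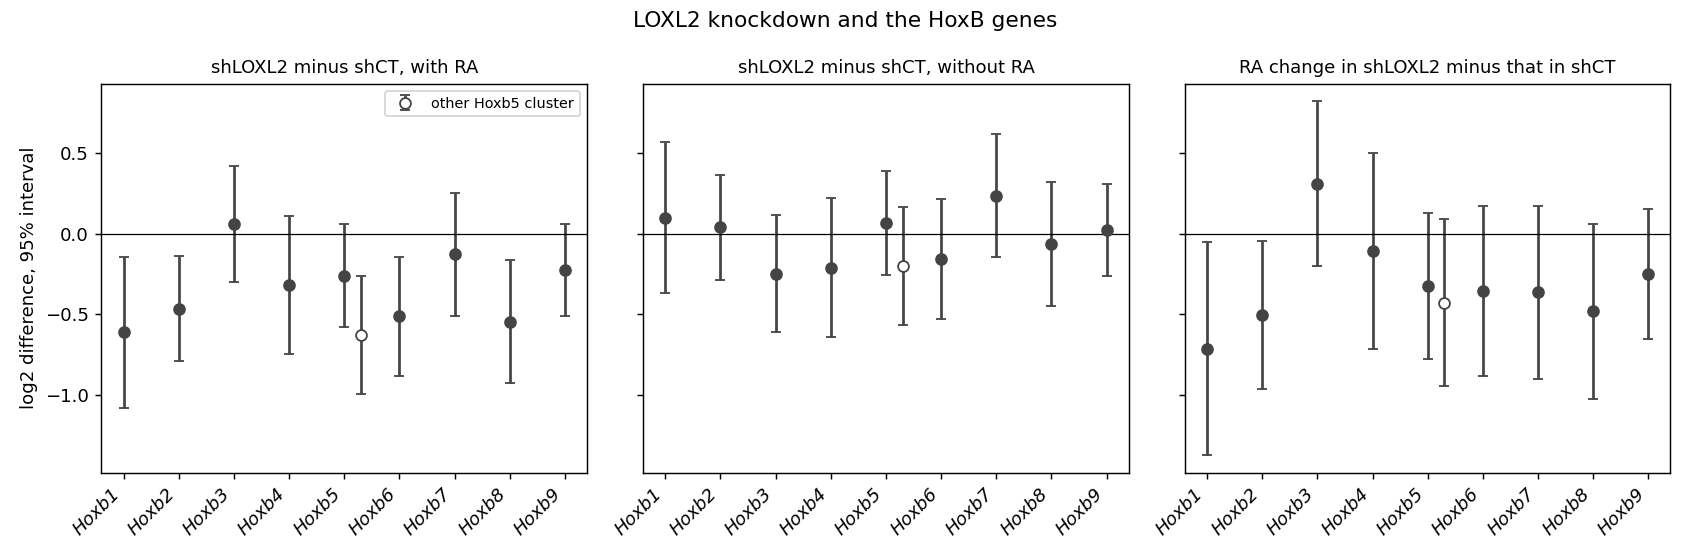
Log2 differences of the HoxB genes between shLOXL2 and shCT cells with RA (left) and without RA (middle), and the RA change in shLOXL2 minus that in shCT cells (right), with 95% intervals of the fit and open symbols for the other Hoxb5 cluster. With RA and for the RA change 8 of 9 filled points lie below 0, and no point passed the adjusted threshold.

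The change with RA itself was compared between constructs. It was smaller in shLOXL2 cells for 8 of 9 members, with a median difference of -0.36, while 48.2% of all genes were below 0 (median 0.009). Hoxb1 differed by -0.71 (95% interval -1.37 to -0.05) and Hoxb2 by -0.51 (-0.97 to -0.04), the only members at an unadjusted p under 0.05, against 1.83% of all genes that were lower at that level. Hoxb8 differed by -0.48 (-1.02 to 0.06), Hoxb7 by -0.36 (-0.90 to 0.17), Hoxb6 by -0.36 (-0.88 to 0.17), Hoxb5 by -0.33 (-0.78 to 0.13), Hoxb9 by -0.25 (-0.65 to 0.15) and Hoxb4 by -0.11 (-0.72 to 0.50). Leaving out 1 array moved several of these by more than 1.5 times, with ranges from -0.647 to -0.293 for Hoxb8, -0.471 to -0.20 for Hoxb7, -0.536 to -0.212 for Hoxb6 and -0.364 to -0.161 for Hoxb9. The smallest differences came without shLOXL2 replicate 2 without RA for Hoxb8 and Hoxb7, and without shCT replicate 3 without RA for Hoxb6 and Hoxb9. None passed the limma threshold (adjusted p = 0.9999 for each, with 0% of all genes called), and exact relabelling of constructs within RA states gave two-sided p-values from 0.065 (Hoxb2) to 0.785 (Hoxb4), with 0.12 for Hoxb1. Without shLOXL2 replicate 1 with RA the Hoxb1 difference was -0.99. The medians of the same difference were 0.01 over the HoxA genes and -0.18 over the HoxC and HoxD genes.

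Averaged over both RA states, 8 of 9 members were lower in shLOXL2 cells, as were 49.2% of all genes, with a median of -0.21 over the members, and none passed (limma adjusted p at least 0.552, against 0.0541% of all genes called in either direction). Hoxb6 had the largest difference, -0.34 ± 0.12 (exact two-sided p = 0.04), followed by Hoxb8 at -0.30 ± 0.13 (exact p = 0.08). Exact p-values were not adjusted over the 9 members, among which they ran from 0.04 to 0.72 (Hoxb7). The relabelling took arrays with and without RA as independent. If same-numbered arrays of a construct share a culture, these p-values are too small, as 3 cultures against 3 cannot give one below 0.1. The other Hoxb5 cluster stood at -0.41 ± 0.12 (limma adjusted p = 0.375).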

How the data were processed

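The authors deposited log2 signals per transcript cluster, 1 column per array, for 41345 transcript clusters. The submitters' processing notes name RMA, limma and R 3.1.1 without saying what each was used for. RNA was extracted with Trizol, per the labels' protocols. No scanner files were used here, so background correction could not be varied, and normalization between arrays removes shifts shared by most genes. The precision is limited by the number of arrays.

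Clusters were named through the platform annotation, with symbols updated through RefSeq (23328 of 23521 clusters with 1 gene matched), and a gene with several clusters was represented by the brightest. Limma 3.58.1 in R 4.3.3 (statmod 1.5.0) was fitted over all 12 arrays with 1 mean per group and tested over 22180 genes, Benjamini-Hochberg adjusted, threshold 0.05. Errors given after ± for changes come from that fit (standard errors). It was tested on simulated data with known changes. Noise in them was drawn independently for each gene and array, so they lacked the shared axis of variation seen within groups here. The text names all 9 members, RefSeq neighbours (all genes inside, 4 protein-coding genes on each side), the 3 genes most alike per member and up to 3 per list by smallest p. The members and lists were chosen with earlier results of these data known. RA was read as retinoic acid.

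Same-numbered arrays with and without RA deviated together in shLOXL2 cells (r = 0.558, 0.248 and 0.216), although replicate 2 with RA and replicate 3 without RA reached 0.369. The main fit and the exact relabellings used no pairs. Replicate numbers entered only as blocks among the alternatives, for both constructs. In shCT cells the r values were 0.363, 0.0394 and 0.631, and between constructs they lay from -0.548 to 0.197. Alternatives were blocks, moderation, filtering, scaling, cluster choice, array weights and leaving out arrays. Of them 3 were chosen after seeing the data: adjusting for the main axis of variation within groups, dropping the 4 arrays high on it, and the other Hoxb5 cluster.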

Additional observations from a re-analysis of the deposited data

How the results depend on the processing

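The rises with RA of Hoxb1, Hoxb2, Hoxb3, Hoxb4, Hoxb6, Hoxb8 and Hoxb9 passed the threshold in both constructs in each of the 23 or 24 alternatives that gave a value for them. The count of members that rose in shCT cells was 8 or 9, and 6 of the 6 left when genes dimmer than the median were dropped. In shLOXL2 cells it was 7 to 9, and 5 of the 6 left under that filter. With the filter 854 of 11090 genes were called in shLOXL2 and 1133 in shCT cells. The replicate block gave 8 in shLOXL2 and 8 in shCT cells, the replicate block within constructs gave 8 in shLOXL2 and 9 in shCT cells, and neither changed a call other than that of Hoxb5. Of all 22180 genes the replicate block called 658 in shLOXL2 and 740 in shCT cells. The block within constructs called 1624 in shLOXL2 and 1800 in shCT cells. Knockdown calls were 0 throughout, except 1 without RA (Hoxb7) and 1 on average (Hoxb6, -0.33, adjusted p = 0.0498) with array weights. That weighted fit called 2875 of 22180 genes without RA and 1002 on average. The cause of the Hoxb7 and Hoxb6 calls was not tested.

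Small knockdown differences changed sign. Without RA, array weights gave -0.023 for Hoxb1, 0.028 for Hoxb4 and 0.09 for Hoxb8, and on average 0.031 for Hoxb5. Without the 4 arrays high on the axis, Hoxb1 stood at -0.027 and Hoxb2 at -0.029 without RA, Hoxb3 at -0.028 with RA and the Hoxb4 difference in RA change at 0.007. Hoxb5 without RA was -0.067 for the mean of its clusters and -0.20 for the other cluster. Leaving out 1 array gave, without RA, -0.076 to 0.211 for Hoxb1, -0.024 to 0.091 for Hoxb2, -0.35 to 0.061 for Hoxb4, -0.005 to 0.172 for Hoxb5, -0.302 to 0.022 for Hoxb6, -0.253 to 0.101 for Hoxb8 and -0.066 to 0.136 for Hoxb9. With RA it gave -0.048 to 0.176 for Hoxb3 and -0.222 to 0.016 for Hoxb7, for the Hoxb4 difference in RA change -0.379 to 0.032, and on average -0.029 to 0.126 for Hoxb7. Dim signals without RA and 3 arrays per group limit these values.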
